A study of Mus musculus with 8 samples.

Results

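The 9 genes examined encode proteins by which bile duct cells are recognised, sorted or known to act on their surroundings. They were Epcam, Cd24a, Prom1, Tspan8, Cd44, Dpp4 and Ggt1, whose products sit on the cell surface, and Spp1 and Clu, whose products are secreted. They were picked by gene symbol out of 20377 symbols in the deposited tables, and all 9 were present in all 8 libraries and passed the filter on low counts. For each symbol the most read transcript was used, a choice that arose for 4 of the 9 genes; positions are those of that transcript on mm9.

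The libraries came from wild type C57BL/6 mice. Cells of the liver other than hepatocytes were sorted by flow cytometry for binding of MIC1-1C3, an antibody to duct cells, for absence of CD26, the protein product of Dpp4, and for not being blood cells. These sorted cells were then divided by surface ST14 (matriptase, a membrane serine protease) into ST14high and ST14low, with 4 samples of each. No age, sex or treatment was given in the labels, and they do not say that the samples came from separate animals, so the p-values describe no more than how these samples spread, and that spread may be technical. The sort on CD26 acted on a product of 1 of the 9 genes in both populations alike, and no unsorted or CD26+ sample was used here.

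Duct cells, or cholangiocytes, line the tubes that carry bile out of the liver and change its composition on the way. They are polarised: adhesion proteins such as EPCAM lie on their sides, while PROM1 and the peptidases DPP4 and GGT1 are found at the apical face towards the lumen. SPP1 (osteopontin) is a phosphoprotein that binds integrins and CD44, and clusterin (CLU) is an extracellular chaperone, so the group holds adhesion proteins, ectoenzymes, a receptor and its ligand.

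Depth ranged from 6398307 reads in ST14low replicate 3 to 42769980 in ST14high replicate 3, counted over the transcripts kept. St14 itself did not separate the populations, with 305 ± 32.5 CPM (SD, n = 4) in ST14high against 329.9 ± 49.0 in ST14low, where CPM is reads per 1e+06 reads of a library (log2 fold change -0.11, SE 0.15 and adjusted p = 0.809 by edgeR's quasi-likelihood test). Of the duct genes listed, 14 of 14 were tested, and they summed to 8487 to 11746 CPM in the ST14high libraries and to 8714 to 11966 CPM in the ST14low libraries. RNA of hepatocytes was present too. The 15 of 15 listed genes tested summed to 5306 to 13147 CPM in ST14high and to 8823 to 15064 CPM in ST14low, with Alb (albumin) alone at 3930 to 11559 CPM over the 8 libraries. The duct and hepatocyte sums hold different genes and do not compare the amounts of the 2 cell types. The fold changes of all 15 hepatocyte genes were below 0, with 0 at an unadjusted p under 0.05 by edgeR, and their part in the levels of the 9 genes was not tested. Expression of Sox9, which encodes a transcription factor of ducts, lay between 403 and 527 CPM in every library. Ptprc, which encodes the pan-leukocyte protein CD45, reached at most 17.6 CPM and had no read in ST14high replicate 3. ST14high replicate 1 was set apart by acinar genes. The 15 listed genes of pancreatic acinar cells summed to 11065 CPM there and to 1628 CPM in ST14high replicate 2. In the other 6 libraries the sum was between 5.09 and 123 CPM. Of these genes 4 were tested and 1 (Amy2a5) had no read anywhere. Other cell lists leaned by population. The median log2 fold change was -1.94 over 11 macrophage genes tested and -0.51 over 13 endothelial genes. It was 2.25 over 15 stellate cell and fibroblast genes and 3.26 over 10 mesothelial genes. In the same order these were -2.36, -1.70, 1.15 and 2.35 without ST14high replicate 1. The part of such cells in the levels of the 9 genes was not tested. Fold changes that rest on ST14high replicate 1 are given with and without it. In these bulk samples fewer cells of a type and less RNA per cell cannot be told apart.

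Of the 9 genes, 8 differed little between ST14high and ST14low, and Cd44 varied more between libraries of 1 population than between populations. By edgeR with Benjamini-Hochberg adjustment over all 13749 genes tested, 0 of the 9 passed an adjusted p of 0.05, where 0% of all genes tested did. At an unadjusted p under 0.05 only Cd44 was called, as higher in ST14high, against 6.89% of all genes called higher and 2.68% called lower. DESeq2, which called 1.72% of all genes, called 0 of the 9, and limma's voom with quality weights called 0 as well. For 0 of the 9 did the 4 libraries of one population all lie above the 4 of the other, while 6.42% of all genes tested were separated in this way. The median log2 fold change was 0.14 over the 9 genes and 0.0023 over all genes tested. These medians were 0.079 and -0.015 without ST14high replicate 1.

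**Figure D1:**
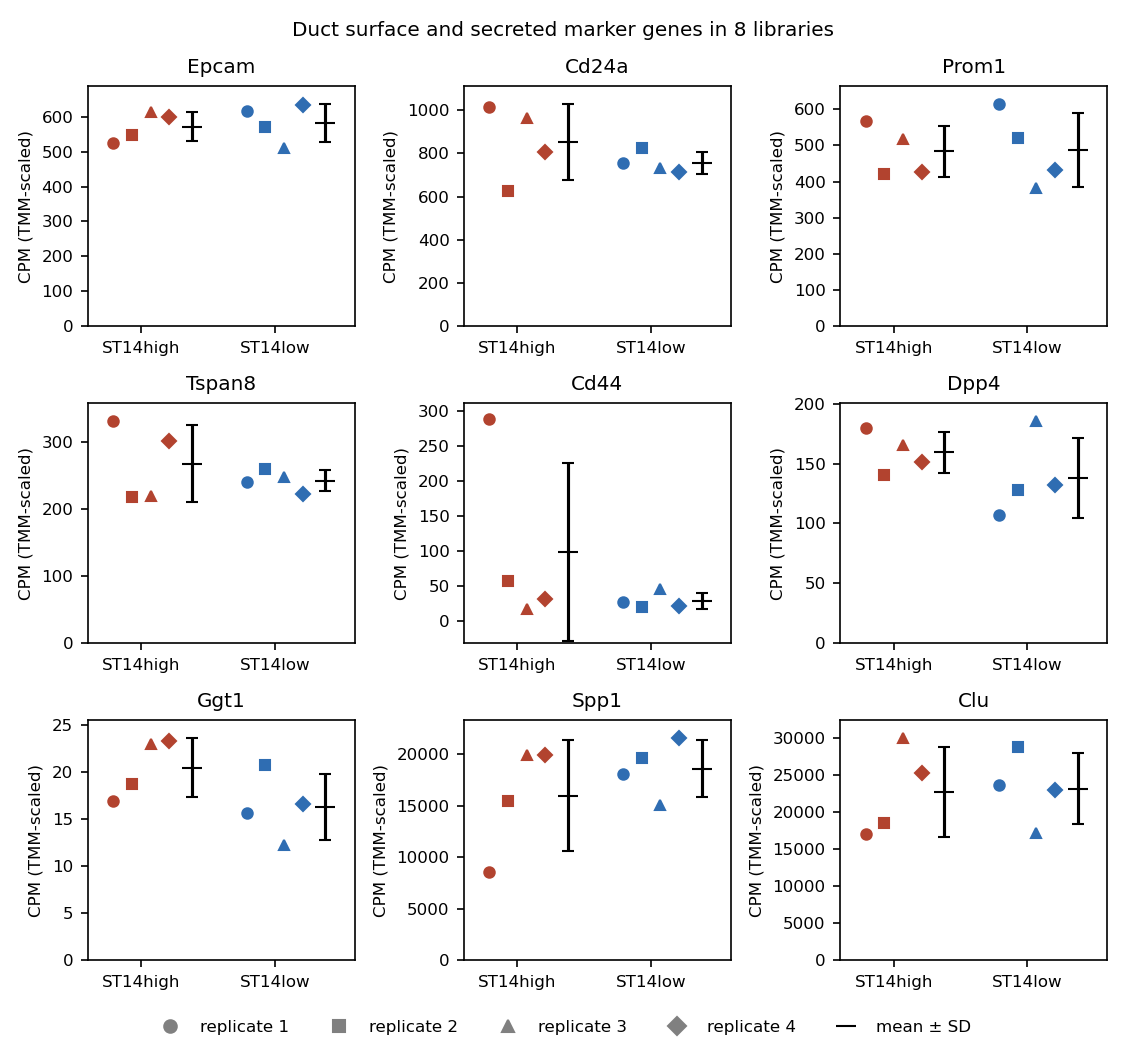
Level of each of the 9 genes (CPM on TMM-scaled library sizes, linear axes) in the 4 ST14high libraries (red) and the 4 ST14low libraries (blue), with symbols for replicate numbers and black bars for mean ± SD. The populations overlap in every panel, and the Cd44 panel is dominated by ST14high replicate 1 at 288 CPM.

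Levels per transcript length set the genes far apart. On the deposited RPKM scale, which divides reads by transcript length and library size, Clu averaged 15516 ± 3453 (SD, n = 8) and Spp1 15084 ± 3888, which made them the genes with rank 1 and rank 2 of all genes in these libraries. Their order was not settled, because Clu lay above Spp1 in 4 of 8 libraries. Cd24a followed at an RPKM of 461 ± 58.1 (rank 76) and Epcam at 340 ± 34.1 (rank 107), with Cd24a above Epcam in 8 of 8 libraries although their ranges over libraries overlapped. Tspan8 had a mean RPKM of 206 ± 27.4 and Prom1 of 176 ± 26.2, and these neighbours overlapped, with Tspan8 higher in 6 of 8. Dpp4 averaged an RPKM of 34.4 ± 5.79, and Cd44 and Ggt1 came last at 12.4 ± 16.7 and 11.9 ± 2.53. The range of Cd44 reached into those of both neighbours: it lay below Dpp4 in 7 of 8 libraries and above Ggt1 in 2 of 8. The steps from Spp1 to Cd24a, from Epcam to Tspan8 and from Prom1 to Dpp4 separated all 8 libraries without overlap.

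**Figure D2:**
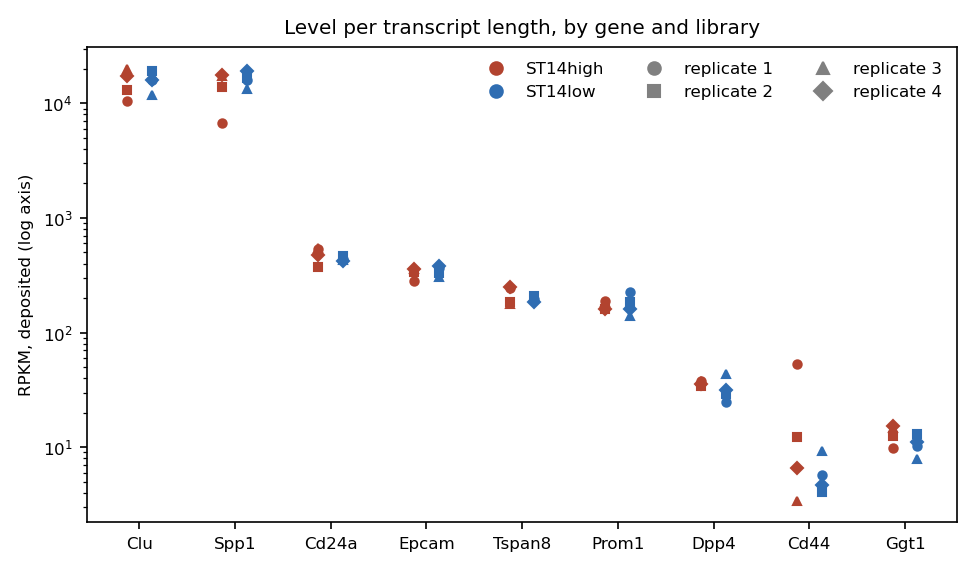
Deposited RPKM of the 9 genes (logarithmic axis) in each library, in order of their mean over 8 libraries, with ST14high in red, ST14low in blue and symbols for replicate numbers. Clu and Spp1 sit near an RPKM of 15516 and 15084, the steps below them are large, and Cd44 alone spreads from 3.41 to 53.0.

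Epcam, a homophilic adhesion protein and the usual surface marker of duct cells, is on chromosome 17 (88035318 to 88050467, plus strand). It was read at 525, 546, 613 and 599 CPM in ST14high replicates 1 to 4 and at 616, 570, 510 and 632 CPM in ST14low replicates 1 to 4. The values interleaved, and the highest library was only 1.24 times the lowest. That placed Epcam among the steadiest genes of the experiment, at percentile 1.78 of all genes tested by the SD of log2 CPM over the 8 libraries. With edgeR, its log2 fold change was -0.03 (SE 0.13, 95% interval -0.31 to 0.26, adjusted p = 0.960); as a ratio of ST14high to ST14low the interval ran from 0.804 to 1.20. An exact two-sided permutation test over the 70 arrangements of the libraries, whose smallest possible p is 0.0286, gave p = 0.800.

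Cd24a, which encodes a small, heavily glycosylated protein anchored by a lipid and used to sort duct progenitors, is on chromosome 10 (43298974 to 43304071, plus strand). Its levels were 1015, 627, 965 and 806 CPM in the 4 ST14high replicates and 754, 826, 730.5 and 713 CPM in the 4 ST14low replicates. The ST14high libraries held both the highest and the lowest value, with an SD of 175 CPM against 49.6 CPM in ST14low. The fitted log2 fold change was 0.17 (SE 0.17, interval -0.20 to 0.55, adjusted p = 0.749 by edgeR), and 0.08 without ST14high replicate 1.

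Prom1 encodes prominin-1 (CD133), a cholesterol-binding protein of microvilli that is used to enrich cells able to form duct organoids, and lies on chromosome 5 (44384860 to 44492975, minus strand). It measured 567, 422, 517 and 428 CPM in ST14high and 615, 520, 382 and 431 CPM in ST14low. Each population had 2 higher and 2 lower libraries, and the means of 483 ± 70.8 and 487 ± 103 CPM were nearly the same. The log2 fold change of -0.01 (SE 0.18, interval -0.41 to 0.39, adjusted p = 0.989 by edgeR) changed sign in 5 of 19 other settings. Of its 8 deposited transcripts, a shorter one with 68.9% of the length held 70.7 to 74.0% of the reads in ST14high and 70.8 to 73.8% in ST14low (exact permutation p = 0.857).

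Tspan8 encodes a tetraspanin, a scaffold protein that gathers partners such as EPCAM and CD44 in the membrane, and lies on chromosome 10 (115254339 to 115286949, plus strand). It was read at 331, 218, 219 and 300.3 CPM in ST14high and at 239, 259, 248 and 221 CPM in ST14low. ST14high replicates 1 and 4 were the highest of all 8 and ST14high replicates 2 and 3 the lowest, so that ST14low lay inside the range of ST14high. Between populations the log2 fold change was 0.14 (SE 0.16, interval -0.22 to 0.51, adjusted p = 0.786 by edgeR), and 0.02 without ST14high replicate 1.

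Dpp4 encodes CD26, a peptidase that trims dipeptides from hormones and chemokines and the surface protein that the sort selected against, and lies on chromosome 2 (62168129 to 62250288, minus strand). Its RNA was present in all 8 libraries, at 179.7, 140.5, 165 and 152 CPM in ST14high and at 107, 128, 186 and 132 CPM in ST14low. ST14low replicate 3 was the highest of all, and the other 3 ST14low libraries were the lowest. The log2 fold change was 0.21 (SE 0.17, interval -0.18 to 0.60, adjusted p = 0.714 by edgeR). Without ST14low replicate 3 the populations did not overlap and the log2 fold change was 0.38 (adjusted p = 0.410), a separation that 12.7% of all genes tested showed in that comparison. The 13 genes listed for endothelium, which can carry CD26, summed to 1373 CPM in ST14low replicate 3 and to 1473 CPM in ST14high replicate 1, the libraries with most Dpp4. They summed to 24.3 CPM in ST14high replicate 3, where Dpp4 still measured 165 CPM, and to between 288 and 1046 CPM in the other 5. The 1046 CPM stood in ST14low replicate 2, where Dpp4 measured 128 CPM. The 13 macrophage genes found, of 14 listed, summed to 961 CPM in ST14low replicate 3 and to between 243 and 759 CPM elsewhere. The part of these or other cells in the level of Dpp4 was not tested. A shorter deposited Dpp4 transcript with 63.6% of the length of the longer one held 51.9 to 53.6% of its reads in ST14high and 50.5 to 56.6% in ST14low (exact permutation p = 1.000).

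Ggt1 encodes gamma-glutamyltransferase 1, an apical enzyme that starts the breakdown of glutathione outside the cell and is a classical enzyme marker of ducts, and lies on chromosome 10 (75036337 to 75048927, plus strand). It was read at 16.9, 18.7, 23.0 and 23.2 CPM in ST14high and at 15.6, 20.7, 12.2 and 16.6 CPM in ST14low. In reads this was 79 in the shallowest library, ST14low replicate 3, and 972 in the deepest. All 4 ST14high libraries lay above 3 of the 4 ST14low libraries, and ST14low replicate 2 lay among them. By edgeR its log2 fold change was 0.32 (SE 0.21, interval -0.14 to 0.79, adjusted p = 0.634), the second largest of the 9. Without ST14low replicate 2 the populations did not overlap and it was 0.46 (adjusted p = 0.617), beside 10% of all genes tested separated in that comparison.

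**Figure D3:**
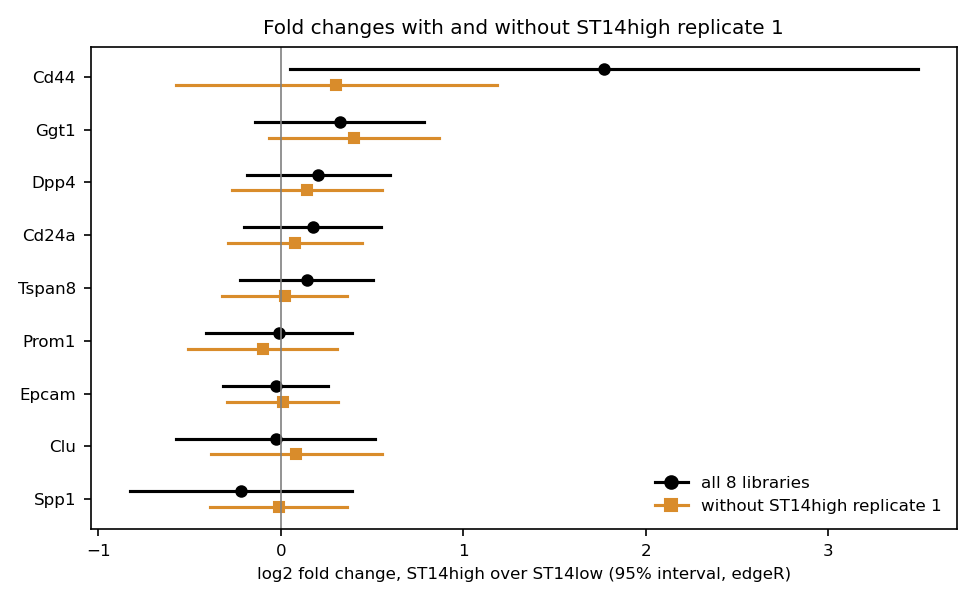
Log2 fold change of ST14high over ST14low for each of the 9 genes with its 95% interval from edgeR, in all 8 libraries (black circles) and without ST14high replicate 1 (orange squares); the grey line marks no difference. Only the interval of Cd44, from 0.05 to 3.49, lies off the line with all libraries, and it crosses the line without that replicate.

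Spp1, on chromosome 5 (104864136 to 104870069, plus strand), was read at 8586, 15479.6, 19979 and 19946 CPM in ST14high and at 18139, 19653, 15060.3 and 21603 CPM in ST14low. ST14high replicate 1 held less than any other library by a wide margin, and the remaining 7 lay between 15060.3 and 21603 CPM. As a share of all reads Spp1 made up 0.781% in that library and up to 2.23% in ST14low replicate 4. The fitted log2 fold change was -0.22 (SE 0.27, interval -0.83 to 0.39, adjusted p = 0.803 by edgeR) and -0.01 (SE 0.17, adjusted p = 0.986) without ST14high replicate 1. The acinar sum of 11065 CPM stood in that same library, and its part in the low Spp1 share was not tested.

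Clu, on chromosome 14 (66587319 to 66600382, plus strand), gave 1.55 to 2.97% of all reads. It measured 17011, 18547, 29984 and 25238 CPM in ST14high and 23653, 28805, 17227 and 22934 CPM in ST14low. The lowest values were 17011 CPM in ST14high replicate 1, 17227 CPM in ST14low replicate 3 and 18547 CPM in ST14high replicate 2. Between populations the log2 fold change was -0.03 (SE 0.24, interval -0.57 to 0.51, adjusted p = 0.977 by edgeR), with a sign that turned in 4 of 19 other settings. Spp1 and Clu each had their 2 lowest values in ST14high replicate 1 and ST14low replicate 3.

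Cd44, the receptor for hyaluronan and for SPP1, was the exception among the 9 genes. It lies on chromosome 2 (102651299 to 102741822, minus strand) and was read at 288, 58.2, 17.0 and 31.9 CPM in ST14high and at 28.1, 20.4, 45.5 and 22.4 CPM in ST14low. ST14high replicate 1 was by far the highest, ST14high replicate 3 the lowest, and the other 6 lay between 20.4 and 58.2 CPM. The highest library was 16.9 times the lowest, and its SD over libraries stood at percentile 91.4 of all genes tested. The log2 fold change of 1.77 (SE 0.77, interval 0.05 to 3.49) had an unadjusted p of 0.0449 and an adjusted p of 0.510 by edgeR, and an exact permutation test of the mean gave p = 0.371. Without ST14high replicate 1 it was 0.30 (SE 0.39, adjusted p = 0.814), and without ST14high replicates 1 and 2 together it was -0.24 (adjusted p = 0.834).

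Markers of connective tissue, mesothelium and endothelium were highest in the library with most Cd44. All 15 genes listed for stellate cells and fibroblasts were tested, and they summed to 3069 CPM in ST14high replicate 1, to 730 to 1009 CPM in the other ST14high libraries and to 327 to 660 CPM in ST14low. Of 11 mesothelial genes 10 were found, and these summed to 892 to 2782 CPM in ST14high and to 717 to 1192 CPM in ST14low. Of these 10, Krt19, Gpm6a and Podxl were left out after their values were seen. The 7 kept are those with an unadjusted p under 0.05 by edgeR, so the gap they show between populations follows from the choice. Their sum was 860 CPM in ST14high replicate 1, with 136, 197 and 211 CPM in ST14high replicates 2, 3 and 4. In ST14low it lay between 21.8 and 62.2 CPM, whereas the sums of all 10 overlapped. In ST14high replicate 3 the sum of the 7 exceeded that of every ST14low library, while Cd44 was at its lowest, 17.0 CPM. Over all 10 mesothelial genes that library stood at 1052 CPM, below the 1192 CPM of ST14low replicate 2. The endothelial sum was 1473 CPM in ST14high replicate 1 and 1373 CPM in ST14low replicate 3, which was the library of ST14low with most Cd44, at 45.5 CPM. It was 1046 CPM in ST14low replicate 2, with the least Cd44 of ST14low (20.4 CPM), and 288 CPM in ST14high replicate 2 (Cd44 58.2 CPM). The acinar sum was 11065 and 1628 CPM in ST14high replicates 1 and 2, the libraries with most Cd44. In ST14low replicate 3, the next by Cd44, it was 5.09 CPM, and the part of acinar cells was not tested. Ptprc was at 6.63 CPM in ST14high replicate 1, and the 13 lymphocyte genes found, of 14 listed, summed to 16.5 CPM there and to between 0.708 and 36.4 CPM elsewhere. The 13 macrophage genes found, of 14 listed, summed to 367 CPM in ST14high replicate 1. Their sum was 759 CPM in ST14low replicate 2, 961 CPM in ST14low replicate 3 and 243 to 436 CPM in the remaining libraries. Cells of mesothelium, connective tissue, blood and endothelium can all carry CD44, and the part of any of them in these levels was not tested.

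**Figure D4:**
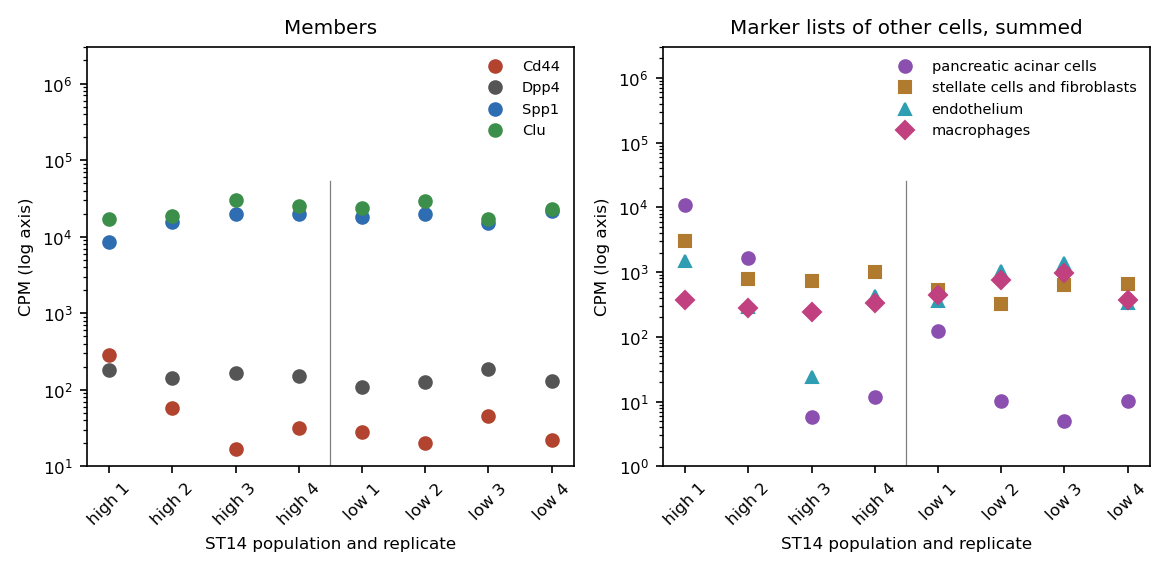
CPM by library (logarithmic axes) of Cd44, Dpp4, Spp1 and Clu on the left and of summed marker genes of 4 other cell types on the right; the grey line divides ST14high from ST14low. In ST14high replicate 1 Cd44 is highest at 288 CPM and Spp1 lowest at 8586 CPM, in the library where acinar markers sum to 11065 CPM and stellate and fibroblast markers to 3069 CPM.

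Cd44 RNA is spliced into a standard form and into longer forms that carry variable exons in the stem of the protein outside the cell. Epithelial cells are known to include variable exons, with the splicing factors ESRP1 and ESRP2, while blood cells and fibroblasts mainly make the standard form. The 6 deposited Cd44 transcripts are nested: each longer one adds variable exons to the one before, from none to all 10, so that subtracting their read counts gives reads for groups of exons. In the GENCODE M21 annotation of GRCm38, where the longest of them was matched by its RefSeq identifier, they are exons 6 to 15 of 19 on the minus strand of chromosome 2 and together hold 1245 bases. The last 3 variable exons are at chr2:102834234-102834335, chr2:102832483-102832572 and chr2:102831330-102831536. They are shown because every library had reads on them:
Cd44 variable exon 8: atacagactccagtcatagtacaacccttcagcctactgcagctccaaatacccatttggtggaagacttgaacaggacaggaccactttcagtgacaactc
Cd44 variable exon 9: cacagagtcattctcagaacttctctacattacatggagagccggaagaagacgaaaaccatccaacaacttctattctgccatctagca
Cd44 variable exon 10: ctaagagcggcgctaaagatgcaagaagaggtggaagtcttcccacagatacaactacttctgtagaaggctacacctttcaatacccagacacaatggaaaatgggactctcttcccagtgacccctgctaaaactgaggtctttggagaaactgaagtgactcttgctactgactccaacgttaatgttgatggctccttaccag

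The first 3 variable exons, at chr2:102848657-102848782, chr2:102846403-102846519 and chr2:102845285-102845410, are shown because ST14low libraries had at most 2 reads on them:
Cd44 variable exon 1: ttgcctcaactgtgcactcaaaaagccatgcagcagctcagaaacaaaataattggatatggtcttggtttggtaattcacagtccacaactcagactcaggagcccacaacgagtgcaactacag
Cd44 variable exon 2: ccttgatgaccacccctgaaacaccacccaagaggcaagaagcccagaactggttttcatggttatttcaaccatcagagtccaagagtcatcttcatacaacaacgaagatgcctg
Cd44 variable exon 3: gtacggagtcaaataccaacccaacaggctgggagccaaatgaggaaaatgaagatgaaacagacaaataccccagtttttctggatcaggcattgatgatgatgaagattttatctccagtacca

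The share of Cd44 reads on variable exons overlapped between the populations. Of the Cd44 reads, 13.1% (exact binomial 95% interval 12.2 to 14.2%; 599 of 4558 reads), 10.5% (8.94 to 12.1%; 153 of 1462), 5.82% (4.22 to 7.78%; 42 of 722) and 14.4% (12.4 to 16.7%; 155 of 1074) fell on variable exons in ST14high replicates 1 to 4. In ST14low replicates 1 to 4 the shares were 9.70% (7.55 to 12.2%; 64 of 660), 9.27% (6.61 to 12.6%; 37 of 399), 6.10% (3.66 to 9.47%; 18 of 295) and 7.53% (5.71 to 9.71%; 54 of 717). The lowest share was in ST14high replicate 3 and the highest in ST14high replicate 4, and the difference did not pass an exact two-sided permutation test (p = 0.257). Intervals cover counting error only, since reads without molecular identifiers are not independent molecules.

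Within the variable region the reads were uneven. Read density over the last 3 variable exons, as a percentage of the density over the constant exons of the same library, was 124, 106, 61.8 and 73.2% in ST14high and 103.5, 108, 60.7 and 63.4% in ST14low, on the lengths implied by the deposited counts and RPKM. On annotated exon lengths, a choice made after seeing the data, it was 31.5 to 63.1% in ST14high and 30.9 to 55.2% in ST14low, so that the level against the constant exons depends on the lengths used. The ranking of the libraries does not, since lengths enter all of them alike. Over the first 3 variable exons the density was 15.9, 4.68, 27.0 and 91.7% in ST14high, from 41, 4, 12 and 55 reads, and 2.57, 0, 11.1 and 2.31% in ST14low, from 1, 0, 2 and 1 reads. All ST14high libraries but replicate 2 lay above all ST14low libraries, and the difference in the share of reads missed the threshold (exact permutation p = 0.0571). The library with 0 such reads had 399 Cd44 reads, which allows a share of up to 0.752% by 3 counts of the total and of up to 0.920% by the exact 95% binomial interval, for counting error only. ST14high replicate 4 stood apart, with reads spread over nearly the whole variable region, whereas ST14high replicate 3 had 0 reads on variable exons 4 to 7 and 12 on exons 1 to 3.

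**Figure D5:**
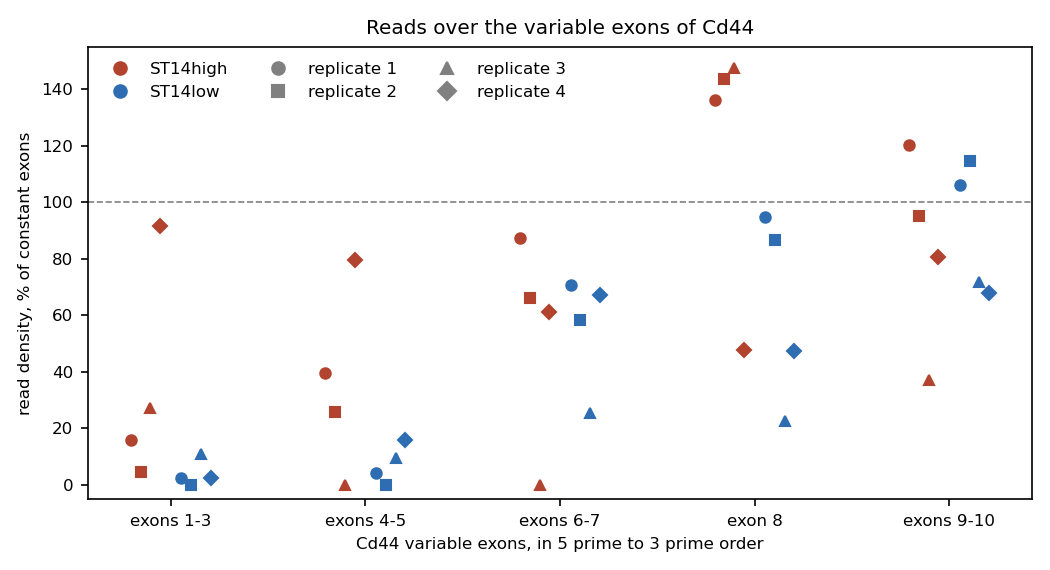
Read density over groups of Cd44 variable exons, in order along the RNA, as a percentage of the density over the constant exons of the same library (dashed line; lengths implied by the deposited values), in ST14high (red) and ST14low (blue) with symbols for replicate numbers. Density over exons 1 to 3 is below that over exons 9 and 10 in every library but ST14high replicate 4, with 91.7% in ST14high replicate 4 and 0 to 11.1% in ST14low over exons 1 to 3.

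Genes that work with the 9 were read from 10 lists, which include the gene itself where it belongs. By DESeq2, 3 genes were called in the list of secreted proteins and 1 each among tetraspanins, clusterin partners and microvillus proteins, and 0 in the other 6 lists, beside 1.72% of all genes. At an unadjusted p under 0.05 edgeR called 6.89% of all genes higher and 2.68% lower, so that 1 higher gene in a list of 12 to 23 genes is near the background.

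Cd44 had 17 tested genes among 19 listed ligands and partners, and 0 passed the adjusted threshold (edgeR). Only Has1, a hyaluronan synthase, had an unadjusted p under 0.05, at 17.4 CPM in ST14high replicate 1 and 0.384 to 3.12 CPM elsewhere. Its log2 fold change was 2.87 with all libraries and 1.16 without ST14high replicate 1, where it no longer passed (unadjusted p = 0.149 by edgeR). Ezr, the linker of membrane proteins to actin, was the highest of the list by RPKM outside the 9 genes. It measured 676 ± 216 CPM in ST14high against 542 ± 123 CPM in ST14low (adjusted p = 0.683 by edgeR). The log2 fold change of Ezr was 0.32, and 0.07 without ST14high replicate 1. Mmp14, a membrane protease that sheds CD44, measured 229 ± 19.97 and 217 ± 22.95 CPM. The splicing factors Esrp1 and Esrp2, chosen here for their role in Cd44 splicing, were read in every library, at 62.2 to 102 CPM and 59.7 to 81.5 CPM. The median log2 fold change of the list was 0.03, beside 0.0023 over all genes tested.

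The partners of EPCAM had log2 fold changes from -0.91 to 1.77, the highest being that of Cd44. All 12 listed were tested, 0 passed the adjusted threshold in edgeR, and at an unadjusted p under 0.05 there was 1, which was Cd44. The list includes matriptase (St14) and its membrane inhibitors Spint1 and Spint2, since matriptase cleaves EPCAM. Spint2 measured 407 ± 47.2 CPM in ST14high against 404 ± 57.1 CPM in ST14low, with a log2 fold change of 0.01 whose sign turned in several settings. Cd9, a tetraspanin partner, measured 335 ± 57.5 and 402 ± 48.4 CPM (log2 fold change -0.26, SE 0.16, adjusted p = 0.616).

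Among 23 tetraspanins, 16 had a fold change below 0 and 7 above it, with a median log2 fold change of -0.11. None passed the adjusted threshold in edgeR (0 of 23), and 3 had an unadjusted p under 0.05. Of these Tspan1 was higher in ST14high, at 18.1 CPM in replicate 1 and 0.968 to 2.73 CPM in the others, against 0.154 to 0.639 CPM in ST14low, and was also called by DESeq2. Without ST14high replicate 1 its log2 fold change of 3.85 was 2.16. Tspan3 and Tspan14 were lower in ST14high, by log2 fold changes of -0.33 and -0.34, and DESeq2 did not call them. Without the same library these were -0.25 and -0.39, and Tspan3 no longer passed (unadjusted p = 0.105 by edgeR). Cd81, with Cd9 the highest by RPKM outside the 9 genes, measured 512 ± 65.8 CPM in ST14high against 550.5 ± 92.1 CPM in ST14low.

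For SPP1 the list held its integrin receptors, Cd44, modifying enzymes and sister genes of the same family. Of 16 genes, 13 were tested and 0 passed the adjusted threshold in edgeR, with 1 (Cd44) higher and 2 lower at an unadjusted p under 0.05. The lower genes were Itga5, an integrin chain, at 142 ± 6.96 CPM in ST14high against 175 ± 26.0 CPM in ST14low, and Fam20c, the kinase of secreted phosphoproteins, at 159 ± 18.6 and 194 ± 15.2 CPM. Neither passed without ST14high replicate 1, with unadjusted p of 0.0801 for Itga5 and 0.115 for Fam20c by edgeR. Itgb1, the shared chain of several of these integrins, was at percentile 0.458 of all genes tested by its SD over libraries, at 633 ± 42.3 and 644 ± 44.3 CPM. Tgm2, which crosslinks osteopontin, measured 840 ± 128 and 794 ± 209 CPM. The sister genes Ibsp, Dmp1 and Mepe had no read in any library, so Spp1 was alone among the listed members of its family.

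Of 13 receptors and partners of clusterin 12 were tested, and 0 passed the adjusted threshold in edgeR. Lrp2 (megalin), an endocytic receptor of clusterin, was the 1 gene with an unadjusted p under 0.05. It was read at 82.0, 10.3, 8.60 and 21.8 CPM in ST14high and at 2.17, 1.90, 4.94 and 1.53 CPM in ST14low. All ST14high libraries lay above all ST14low libraries, and on the log2 scale the fold change was 3.62 (SE 0.78; adjusted p = 0.192 by edgeR and 3.03e-05 by DESeq2), or 2.44 without ST14high replicate 1. Lrp2 is also a gene of mesothelium. The 7 mesothelial markers kept above were likewise higher in all ST14high libraries, but they were kept after their values were seen. They are the genes of that list with an unadjusted p under 0.05 by edgeR, so their separation came with that choice. The sum of all 10 found overlapped between the populations. The part of mesothelium in the level of Lrp2 was not tested. Apoe, an apolipoprotein, was the most abundant of the list with 5539 ± 1539 and 6631 ± 1531 CPM, and Hspa5, a chaperone that binds clusterin, measured 809.5 ± 341 and 789.7 ± 114 CPM.

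The peptidase relatives of Dpp4 showed no gene past an unadjusted p of 0.05 among 10 tested of 13 listed, and 0 passed the adjusted threshold in edgeR. Cav1, a membrane protein that binds CD26, measured 292 ± 36.6 CPM in ST14high against 242 ± 24.4 CPM in ST14low (log2 fold change 0.27, SE 0.14, adjusted p = 0.563). Anpep, an apical aminopeptidase, measured 257 ± 58.0 and 274 ± 52.5 CPM. Fap, the closest relative of Dpp4, did not pass the filter on low counts, with 49 reads in all, and Dpp10 had no read.

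Around Ggt1, 17 of 19 genes of the glutathione cycle were tested and 0 passed the adjusted threshold in edgeR. Gclc, the catalytic subunit of the first enzyme of glutathione synthesis, was the 1 gene with an unadjusted p under 0.05. It was read at 335, 95.4, 131 and 129 CPM in ST14high and at 88.9, 76.3, 93.5 and 78.4 CPM in ST14low, without overlap. Its log2 fold change was 1.03 (SE 0.35, adjusted p = 0.396 by edgeR, 0.105 by DESeq2) and 0.49 (SE 0.15, adjusted p = 0.339) without ST14high replicate 1. Ggt6, a paralogue of Ggt1 chosen after its values were seen, was read at between 14.3 and 22.0 CPM.

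For Prom1 the list held its paralogue and other microvillus proteins, of which 14 of 15 were tested and 0 passed the adjusted threshold in edgeR. Myo1a, a motor of the brush border, was higher at an unadjusted p under 0.05, at 89.9 CPM in ST14high replicate 1, 0.968 to 6.83 CPM in the other ST14high libraries and 0.205 to 0.926 CPM in ST14low. Leaving out that first library took its log2 fold change from 5.55 to 2.95. Cdhr5, a cadherin that links microvilli, was lower, at 35.9 ± 3.59 CPM in ST14high against 46.1 ± 4.80 CPM in ST14low, with no overlap (log2 fold change -0.36, SE 0.14, adjusted p = 0.472). Eps8l2, an actin regulator, measured 398 ± 40.8 and 367 ± 60.95 CPM. The paralogue Prom2, chosen after its values were seen, was read at 0.615 to 3.92 CPM.

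Other surface proteins of ducts gave no call. Of 26 listed, 25 were tested and 0 passed the adjusted threshold in edgeR, with Muc1, an apical mucin, alone at an unadjusted p under 0.05. Muc1 was read at 1191 CPM in ST14high replicate 1 and at 264 to 488 CPM elsewhere. Its log2 fold change of 0.88 fell to 0.36 without that library, where it no longer passed (unadjusted p = 0.137 by edgeR). Anxa4 measured 923 ± 189.7 CPM in ST14high against 942 ± 37.9 CPM in ST14low, and Cdh1, the adhesion protein E-cadherin, 2045 ± 190.0 and 2380.2 ± 315 CPM. The list had a median log2 fold change of 0.12, and of -0.01 without ST14high replicate 1.

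The secreted proteins of ducts other than Spp1 and Clu included genes with wide ranges. All 20 were tested, and 0 passed the adjusted threshold in edgeR, while 7 were higher and 2 lower at an unadjusted p under 0.05, beside 6.89% and 2.68% of all genes. DESeq2 called 3 of the 20 higher, beside 1.72% of all genes. Without ST14high replicate 1 the edgeR counts were 6 higher and 3 lower. Vegfa, the growth factor of blood vessels, was among those DESeq2 called. It was read at 811, 797, 924 and 934 CPM in ST14high and at 534, 475, 583.6 and 583.7 CPM in ST14low, without overlap. The log2 fold change was 0.67 (SE 0.13, adjusted p = 0.192 by edgeR, 3.03e-05 by DESeq2) and 0.70 without ST14high replicate 1. Slpi, a protease inhibitor, was read at 220.4, 31.6, 55.6 and 36.7 CPM in ST14high and 6.61, 6.30, 28.1 and 5.88 CPM in ST14low, also without overlap, and its log2 fold change of 2.94 was 1.89 without ST14high replicate 1. Bgn, a matrix proteoglycan, measured 399.8 ± 182 CPM and 209 ± 24.9 CPM, again without overlap, and is also made by fibroblasts, whose summed markers were higher in every ST14high library as given above; their part in it was not tested. Its log2 fold change was 0.94, and 0.58 without ST14high replicate 1. Wfdc15b was among the lower genes, with a log2 fold change of -0.79 (-0.62 without that library). Dmbt1, a mucin-like protein, showed the widest range, from 1.09 CPM in ST14high replicate 3 to 23974 CPM in ST14high replicate 1, the library rich in acinar genes, and its log2 fold change of 6.88 was 3.32 without that library. Mfge8, the other gene of highest RPKM, measured 962 ± 180.1 and 1165 ± 179 CPM. The list's median log2 fold change of 0.46 fell to 0.12 without ST14high replicate 1.

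Likeness of pattern was measured as the root mean square difference between log2 CPM values centred on each gene's own mean over the 8 libraries, among 10276 genes of at least 10 CPM. Nearest to Epcam were Heatr2 and Sart3, at 0.0584 and 0.0632, and 2229 genes lay within 0.2 of it. Nearest to Cd24a were Ccdc109a and Oasl2 (0.0878 and 0.0933), to Prom1 Tgm2 and Usp3 (0.0896 and 0.0958), and to Tspan8 Erf and Sec14l1 (0.0625 and 0.0836). Nearest to Dpp4 were Fert2 and Acsl4 (0.0879 and 0.105), and to Ggt1 Pold1 and Ubxn1 (0.0909 and 0.0938). Nearest to Spp1 were Dync2li1 and Arl6 (0.0863 and 0.0954), and to Clu Aaas and Dcakd (0.0622 and 0.0923). Cd44 had 0 genes within 0.2, with Pls1 and Tspan15 nearest at 0.368 and 0.378. Of the other 8 genes Tspan8 was the nearest to Cd44, at 1.097. The measure takes in size of spread as well as pattern, and the SD of log2 CPM was 1.30 for Cd44 against 0.222 for Tspan8. A gene of small spread therefore cannot come near Cd44, whatever its pattern. A steady gene is close to many others by this measure, and the points are 8 libraries that each share 1 depth and 1 cell mixture.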

How the data were processed

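Gene expression was measured by RNA sequencing in 8 libraries, 4 each of ST14high and ST14low sorted mouse liver duct cells, grouped by their labels. Sorting into TRIzol and a TruSeq library kit are recorded per the labels' protocols. The tools named, per the submitters' processing notes, were Bowtie 1.0.0 and CASAVA 1.8.2, with the genome build mm9. How reads were counted, and with which annotation and strand setting, is not given in the sources used here, so reads from overlapping or near-identical genes cannot be told apart. The authors deposited raw counts per RefSeq transcript, per the file headers, without normalization. The deposited RPKM values, scaled by the authors for length and library size, were used for levels between genes and as an alternative with limma at a pseudocount of 1.

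The 26005 transcripts were reduced to the most read one per symbol. The test was edgeR 4.0.16 (R 4.3.3; TMM, filterByExpr, quasi-likelihood, Benjamini-Hochberg over 13749 genes), with DESeq2 1.42.0 and limma 3.58.1 as alternatives and exact permutation tests of single values. CPM are on TMM-scaled library sizes. No pair of libraries differed as little as counting noise (lowest chi-square per degree of freedom 18.5 over 28 pairs). For ST14high against ST14low, the fit was tested on simulated data over 13699 genes, and 92% of 200 genes changed 4-fold were recovered. That simulation gave all genes 1 common spread between libraries and left genes of low level unchanged. It held no library set apart like ST14high replicate 1, so the 92% is not the power in these data.

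The members and lists were chosen with earlier results of these data known. Named were the 9 genes, St14, Ptprc, the 2 genes of highest mean RPKM in each list (0 genes passed the adjusted threshold) and the 2 genes nearest to each of the 9; genes at an unadjusted p under 0.05 and others so marked were named after their values were seen. Some listed genes are not reported here by name. Alternatives covered scaling, filters, tools, transcript choice, RPKM, a replicate block and left-out libraries, 19 in all.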

Additional observations from a re-analysis of the deposited data

Results flagged for a closer look

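St14 in ST14high replicate 3 lay far from the other 3 ST14high libraries, at 354 CPM against 286 to 291 CPM. On the log2 scale the gap to the nearest of them was 0.916 of the range of the population, above Dixon's 95% critical value for 4 samples. It was the only such value among 22 groups tested (11 genes in each population), and chance flags about 1 in 20 groups. Leaving out that library, St14 had a log2 fold change of -0.21 (adjusted p = 0.690 by edgeR).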

How the results depend on the processing

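Over the 19 other settings 0 of the 9 genes was ever called at an adjusted p of 0.05, and 157 of 171 fold changes of the 9 genes kept their sign. The number of all genes called was 0 except with DESeq2 (233, of which 219 were higher in ST14high) and with the replicate block (2). The replicate block rests on numbers that do not pair the samples: deviations of same-numbered libraries correlated at 0.0521, 0.0522, -0.125 and 0.00537, and 0 of 4 ST14high libraries matched its own number best. Leaving out 1 library at a time, the number of the 9 genes without overlap ran from 0 to 1 (Ggt1 without ST14low replicate 2, Dpp4 without ST14low replicate 3), and it was 1 (Ggt1) without both ST14high replicates 1 and 2, where 24% of all genes were separated.

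Signs turned as follows, on the log2 scale. Leaving out 1 library, Epcam ran from -0.0894 to 0.0112, Prom1 from -0.115 to 0.118, Clu from -0.21 to 0.0901, Anxa4 from -0.154 to 0.0733, Spint2 from -0.0733 to 0.0923, Tgm2 from -0.0253 to 0.234, Hspa5 from -0.289 to 0.177, Itgb1 from -0.0876 to 0.0067 and Anpep from -0.241 to 0.0465. Without ST14high replicates 1 and 2 together, values were 0.0552 for Epcam, -0.24 for Cd44, 0.0973 for Spp1, 0.25 for Clu, 0.19 for Anxa4, -0.033 for Spint2, 0.0191 for Itgb1, -0.44 for Hspa5 and 0.13 for Anpep. With the replicate block, Prom1 was at 0.00074 and Hspa5 at -0.0415. Spint2 was at -0.0020 with DESeq2's size factors, -0.0348 with upper-quartile factors, -0.0184 with raw totals, -0.0016 with no filter, -0.0024 with DESeq2 and -0.0149 on the RPKM scale. Hspa5 was at -0.0182 with upper-quartile factors, -0.0036 with raw totals and -0.0666 on the RPKM scale, and Mmp14 at -0.0256 with limma's voom. The cause was not tested. For Cd44 the 19 values ran from -0.24 to 2.10, with 0.30 without ST14high replicate 1. Depth limits Ggt1 and the Cd44 exons most, in ST14low replicate 3 above all.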
